A study of Mus musculus with 6 samples.

Results

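The acetylation of vehicle-treated tumour cells was described from the H3K27ac regions called in A9 cells kept for 48 h in 1% DMSO, the vehicle. All 47899 regions of the DMSO list were taken, of 152284 regions in the 3 lists of the series. A9 is a metastatic clone of TC1, a line made from primary lung cells of a female C57Bl/6 mouse by transformation with the E6 and E7 oncogenes of a human papillomavirus and an activated H-ras, so every sample carries these oncogenes and comes from a single line. The other lists came from A9 cells given either curcuphenol, at 0.00167 μmol, or IFN-γ in the same vehicle for 48 h, and are used here only to show whether a DMSO call recurs in another library of the line. Each treatment used chromatin of 130000 live cells and gave 1 library of H3K27ac and 1 of input, the chromatin that met no antibody. There was thus no replicate, no test and no p-value. A region is a stretch that the authors' peak caller found above the input, and its list gives positions only, with no height or read count. Depth is unknown, so a locus without a region is one where none was detected at the depth of this library.

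H3K27ac, acetylation of lysine 27 of histone H3, marks nucleosomes at active promoters and enhancers and is removed when a gene is shut off. Long clusters of acetylated enhancers tend to lie at the genes that define a cell type, among them its master transcription factors. Lung epithelium depends on such factors as Nkx2-1, Foxa1 and Foxa2, whereas fibroblasts and other mesenchymal cells use Twist1, Prrx1, Snai2 and the Runx factors. The AP-1 factors, dimers of Fos and Jun proteins, act at the end of the RAS-MAPK pathway and bind the heptamer TGANTCA.

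The DMSO regions covered 69.8 Mb, or 2.56% of the chromosomes, with a median width of 1042 bp and 10th and 90th percentiles of 301 and 2999 bp. Wide regions were few. Regions of 5 kb or more numbered 1354, or 2.83% of the list, and held 14.5% of the covered bp. Of these wide regions 99.4% overlapped a curcuphenol region and 100% an IFN-γ region by at least 1 bp. For the whole DMSO list these shares were 66.7% and 82.1%. A wide region meets an overlap of 1 bp more easily than a narrow one, so these shares do not compare their recurrence. The overlap could be partial. Of a region of 15938 bp in Septin9, curcuphenol regions covered 44.4% and IFN-γ regions 97.3%. Regions under 500 bp made up 28.3% of the list and 6.68% of its bp.

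DMSO regions away from promoters held the AP-1 heptamer more often than the DNA around them. A promoter is here the window that begins 1000 bp before a curated RefSeq transcription start site (TSS) and ends 100 bp after it. In the 500 bp around the centre of 36887 such regions, TGANTCA was found in 35.4% (95% interval 34.9 to 35.9), against 13.8% (13.4 to 14.2) of 31601 windows of the same length 10 kb downstream that touched no region. Intervals are exact Clopper-Pearson 95% intervals and cover counting error only. The ratio of both shares was 2.56 (2.48 to 2.64), and 2.18 (2.12 to 2.24) over all regions. The heptamer reads as TGANTCA on both strands, and every motif was searched on both. In regions at promoters it was found in 10.2% of 11010 centres.

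AP-1 matches were more frequent near the region centres than beside them. In bins of 100 bp, 8.91% of the regions away from promoters had a match in the bin just downstream of the centre and 3.21% in the bin 1950 bp upstream. The shares formed a plateau around the centre and not a peak at it. They were 8.89% in the bin 250 bp upstream, 8.03% at 150 bp upstream and 8.36% at 350 bp on either side. By width, matches in the central 500 bp were most frequent in regions from 1000 to under 2000 bp wide, at 52.9% of 9471 regions. The share was 23.1% in regions under 500 bp and 23.4% in regions of 5000 bp or more, whose central 500 bp are a small part of the whole.

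**Figure D1:**
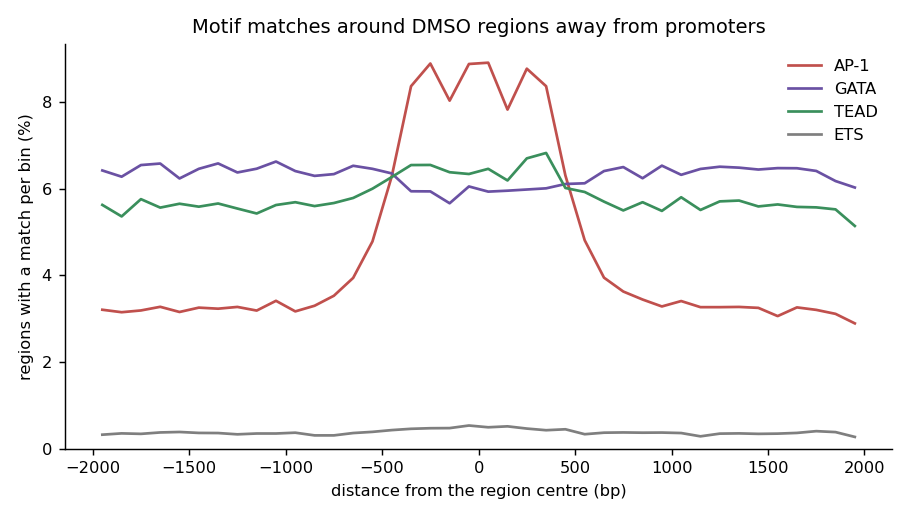
Share of DMSO regions away from promoters with a motif match in each bin of 100 bp (y axis, %) by distance from the region centre (x axis, bp), for the AP-1, GATA, TEAD and ETS letters spelled out in the text. The AP-1 line rises from 3.21% at 1950 bp upstream to a plateau. From 250 bp upstream to 250 bp downstream it lies between 7.83% and 8.91%. The GATA line is slightly lower at the centre than outside.

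Other motifs differed less between regions away from promoters and their comparison windows. The next largest ratio was that of the ETS letters CCGGAAG, found in 2.41% against 1.72%. The TEAD letters GGAATG were found in 27.6% against 24.3%, and the RUNX letters TGTGGTT in 15.4% against 12.3%. The E-box CATCTG, which Twist and other basic helix-loop-helix factors can bind, was found in 37.4% against 33.8%, and the forkhead letters TGTTTAC in 8.72% against 7.09%. The PU.1 letters GAGGAAG, of a factor of blood cells, stood at 17.6% against 15.4%. For the GATA letters AGATAA the shares were 25.9% and 27.5%, for the NKX2 letters CAAGTG 27.5% and 27.9%, and for the SOX letters ACAATGG 7.58% and 7.65%. These regions had a mean GC content of 44.7%, against 43.3% in the comparison windows, and 19.7% of their bases lay in repeats, against 30.5%. The part of base composition and repeats in the motif shares was not tested. At promoters the pattern was another one. The ETS letters were found in 15.7% of region centres at promoters. Over all regions they were found in 5.46%, against 1.80% of comparison windows, a larger ratio than that of AP-1 over all regions. Over promoter sequences of 300 bases from the RefSeq table of GRCm38.p6, 19.4% of 11001 sequences of genes with a promoter region held the ETS letters, and 3.20% of 9487 sequences of genes without one. The AP-1 letters were in 5.07% and 9.47% of them. The ETS letters hold a CG, and the mean GC content was 60.9% in the former sequences and 51.6% in the latter. Over all regions it was 47.7%, against 43.7% in the comparison windows. The part of base composition in these shares was not tested either.

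Examples of the heptamer are printed from loci with many covered bp, chosen after their values were seen. Each is shown with 25 bases on either side, and this printed stretch touches no exon and no promoter, though the region around it can. It is the match nearest to the region centre that meets this rule, in the widest DMSO region over the gene that holds one, from the plus strand of mm10. The heptamer is in capitals, and all of them lie in introns of the named gene.
Vmp1 (chr11:86590187-86590243): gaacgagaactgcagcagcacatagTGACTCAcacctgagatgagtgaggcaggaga
Hmga2 (chr10:120469336-120469392): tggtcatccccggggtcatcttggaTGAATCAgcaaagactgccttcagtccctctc
Septin9 (chr11:117315384-117315440): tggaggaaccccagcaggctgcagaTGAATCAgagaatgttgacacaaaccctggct
Myof (chr19:38032573-38032629): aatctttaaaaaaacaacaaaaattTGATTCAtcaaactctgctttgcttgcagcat
Anxa2 (chr9:69466253-69466309): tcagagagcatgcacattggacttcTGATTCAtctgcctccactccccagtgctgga
Tead1 (chr7:112697806-112697862): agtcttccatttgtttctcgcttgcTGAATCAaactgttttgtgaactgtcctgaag
Runx1 (chr16:92622385-92622441): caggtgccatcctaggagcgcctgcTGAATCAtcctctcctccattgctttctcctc
The region around the Vmp1 match was 41334 bp wide and held 14 matches, that of Anxa2 27773 bp with 14, that of Septin9 24097 bp with 10 and that of Myof 23193 bp with 11. Vmp1 encodes a membrane protein of autophagy, and Mir21a lies in its 3′ part. Anxa2 encodes annexin A2, which binds membranes, and Myof encodes the membrane protein myoferlin.

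Promoters of mesenchymal transcription factors carried DMSO regions more often than those of the other lineage lists. Of 36 mesenchymal factors, 25 had a promoter region (69.4%, 51.9 to 83.7), against 50.2% of all 21000 protein-coding genes. Of 30 lung and airway epithelial factors 12 had one, of 14 factors of lung mesoderm and position 6, of 15 endothelial factors 4 and of 16 cardiac and skeletal muscle factors 4. The intervals of the lung epithelial (22.7 to 59.4%) and lung mesoderm (17.7 to 71.1%) shares take in 50.2%. Blood (2 of 24), neural (2 of 30), gut, liver and kidney (2 of 18) and germ line or pluripotency factors (2 of 16) had the fewest. Over all 197 lineage factors, 58 had a promoter region with DMSO, 53 of them also with curcuphenol and with IFN-γ, and 133 had none in any list. The lists were made with earlier results of these data known, and the counts describe them and were not tested.

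Lineage factors often have CpG-rich promoters, and these are acetylated in most genes of the line. A promoter was called CpG-rich when the 1000 bp around its TSS had at least 50% GC and an observed to expected CpG ratio of at least 0.6. Of 10083 genes of this class 80.3% (79.5 to 81.0) had a promoter region, and of 10917 other genes 22.4% (21.7 to 23.2). Among CpG-rich mesenchymal factors 21 of 28 (75.0%) had one, which is not above the 80.3% of all genes of this class. The counts were 10 of 20 for lung and airway epithelial factors, 4 of 9 for muscle factors, 2 of 9 for blood factors, 2 of 21 (9.52%) for neural factors and 0 of 9 for gut, liver and kidney factors. Most silent neural factors thus had CpG-rich promoters without a region.

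Twist1, a basic helix-loop-helix factor of mesenchyme and of epithelial-mesenchymal transition, lay wholly within a region of 5544 bp on chromosome 12 of mm10 (33955846 to 33961389). The zinc finger repressors of E-cadherin Snai2 and Snai1 were covered over 95.5% and 82.3% of their spans, the span being the gene body and 1000 bp upstream. Zeb1 and Zeb2, which act on the same target, had promoter regions of 3507 and 5867 bp. Prrx1, a homeobox factor of limb and connective tissue mesenchyme, was covered over 35741 bp of its 69532 bp (51.4%), with a promoter region of 9561 bp. Runx1 was covered over 57626 bp (25.5%) and Runx2, the factor of bone formation, over 40428 bp (12.6%). Tcf4, which binds E-boxes, was covered over 78871 bp (22.9%) and Nfix over 32841 bp (34.0%). Foxc1 (93.2%) and Foxf1 (80.1%), forkhead factors of mesoderm, were covered over most of their spans. Gli3, a mediator of Hedgehog signals, had 18680 bp (6.99%). The mesenchymal factors without a promoter region began in list order with Tcf21, Foxd1, Foxl2 and Meox1, none of which had any covered bp. Meox2 and Tbx18 had 2164 and 1559 bp away from the promoter. Snai1, Snai2, Twist1, Zeb1, Zeb2, Foxc1 and Foxf1 were named after their values were seen.

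**Figure D2:**
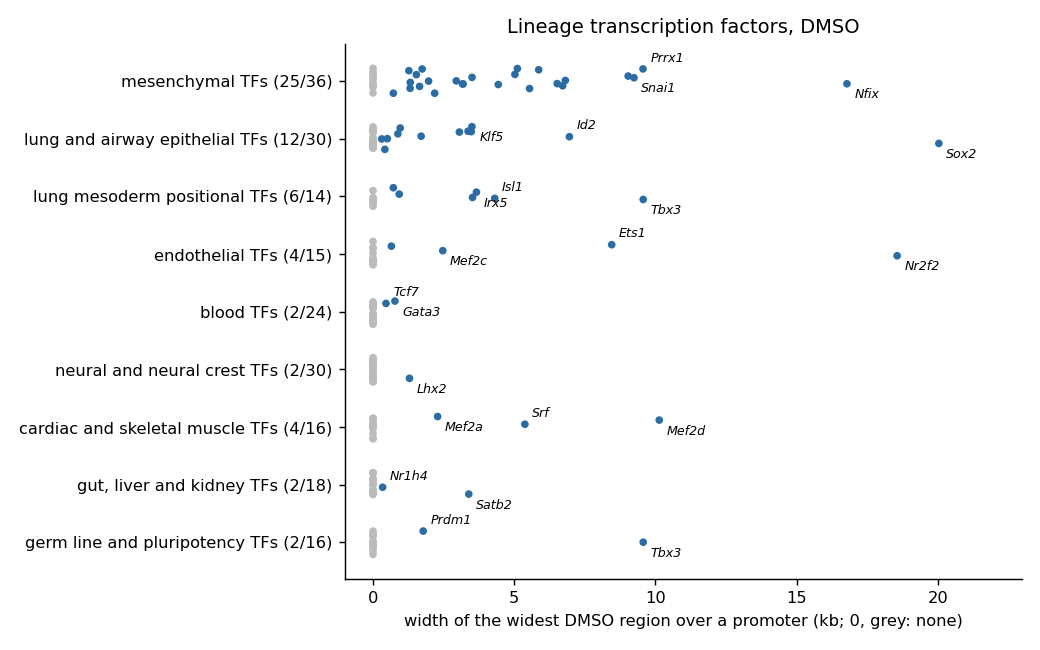
Width of the widest DMSO region over a promoter (x axis, kb) for each lineage transcription factor (point), by list (y axis, with the number that have a region of the number in the list), and 0 in grey where there is none. Points are spread vertically for legibility only. A few factors that are not reported here are counted but not drawn. The widest drawn are over Sox2 (20040 bp), Nr2f2 (18.6 kb) and Nfix (16.8 kb), and most neural and blood factors are at 0.

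The lung and airway epithelial factors divided by member. Of the 30, 12 had a promoter region, whereas Nkx2-1, Foxa1, Foxa2, Foxp2, Elf3 and Elf5, the first in the list without one, had 0 covered bp over gene body and upstream sequence. The epithelial factors with the most covered bp were Etv5, an ETS factor induced by FGF and RAS signals (8431 bp, 14.2% of its span), Trp63, the p53 relative of basal cells, Rfx3 (6884 bp), Sox9 (4205 bp, 64.2%), Klf5 (3503 bp, 22.3%) and Sox2. Trp63 had 7209 bp (3.44%) within the gene and none at its annotated promoters. Sox2, a factor of proximal airway as well as of stem cells and neural tissue, lay wholly within a region of 20040 bp on chromosome 3 (34648810 to 34668849). The curcuphenol regions covered 87.3% of that stretch and the IFN-γ regions 98.6%.

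The count of CG just before the TSS did not separate the acetylated from the silent among the 4 lineage factor promoters printed next. These promoters were chosen after their values were seen. The 200 bases before the TSS are printed for Twist1 and Prrx1, which had a region, and for Nkx2-1 and Foxa1, which had none. They come from the RefSeq promoter table of GRCm38.p6, run 5′ to 3′ on the strand of the gene, and have each CG in capitals.
Twist1 (chr12:33957471-33957670, plus strand): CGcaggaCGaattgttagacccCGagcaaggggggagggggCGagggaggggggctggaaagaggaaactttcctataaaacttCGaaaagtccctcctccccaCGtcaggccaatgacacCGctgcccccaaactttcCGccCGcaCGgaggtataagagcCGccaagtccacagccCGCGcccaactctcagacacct
Prrx1 (chr1:163313651-163313850, minus strand): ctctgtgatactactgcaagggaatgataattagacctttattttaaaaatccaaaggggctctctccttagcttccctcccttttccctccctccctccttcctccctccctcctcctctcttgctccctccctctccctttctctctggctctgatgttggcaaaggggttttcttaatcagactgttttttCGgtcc
Nkx2-1 (chr12:56536909-56537108, minus strand): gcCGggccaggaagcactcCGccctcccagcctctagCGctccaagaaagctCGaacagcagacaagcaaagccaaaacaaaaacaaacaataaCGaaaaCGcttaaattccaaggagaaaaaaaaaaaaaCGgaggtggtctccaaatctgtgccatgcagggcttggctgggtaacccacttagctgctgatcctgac
Foxa1 (chr12:57546112-57546311, minus strand): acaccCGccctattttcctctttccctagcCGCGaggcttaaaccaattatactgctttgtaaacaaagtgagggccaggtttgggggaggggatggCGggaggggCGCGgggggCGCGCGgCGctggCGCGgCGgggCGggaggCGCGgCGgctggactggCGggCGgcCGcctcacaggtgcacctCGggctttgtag
The stretch held 13 CG in Twist1 and 1 in Prrx1, and 7 in Nkx2-1 and 21 in Foxa1. Promoter sequences of genes with a region held on average 21.6 CG in 300 bases, against 8.94 in those of genes without one. These averages are over a longer stretch than the 200 bases printed, so the counts are not on the same scale. In these 200 bases Prrx1, with a region and few CG, and Foxa1, without a region and with many, are exceptions in opposite directions. The printed stretch is not the 1000 bp around the TSS by which promoters were called CpG-rich.

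Factors of other lineages were mostly without regions, with single members as exceptions. Among the neural factors with covered bp were Lhx2 (1292 bp, with a promoter region), Myt1l (3569 bp, 0.902% of the gene) and Phox2a (1381 bp), the latter pair without a promoter region. Sox1, Sox3, Sox10, Pax6, Pax2 and Neurod1 had none. Nr2f2, a nuclear receptor of venous endothelium and mesenchyme, was covered over its whole span by a region of 18562 bp. Ets1 had 42713 bp (34.8%), but Erg, Fli1, Sox7, Sox17, Sox18 and Prox1, the other endothelial factors first in the list, had none. Of the muscle list, the widely expressed Mef2d (12111 bp), Mef2a (8502 bp) and Srf (5160 bp) had promoter regions. Nkx2-5, Tbx20, Hand1, Hand2, Gata4 and Myocd had 0 covered bp. Of the blood factors Tcf7 (4458 bp) and Gata3 (1005 bp) had promoter regions, of 459 and 776 bp, that of Tcf7 in neither of the other lists, and Spi1, Ikzf1, Ikzf3, Gfi1, Gfi1b and Gata1 had no covered bp with DMSO. With curcuphenol Spi1 had 1427 and Ikzf1 1781 covered bp, away from the promoter. Pou5f1 and Nanog, factors of pluripotent cells, had none, and neither had the liver and gut factors Hnf4a and Cdx1. Tbx3, a T-box factor of lung mesenchyme that is also on the pluripotency list, was covered over 12695 bp (85.4%). Of 39 Hox genes 12 had a promoter region, 8 of them Hoxb2 to Hoxb9, with 92.3% of the span of Hoxb3 covered.

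Among markers of differentiated cells, those of fibroblasts and mesenchyme had promoter regions most often. Of 22 fibroblast and mesenchymal markers 16 had a promoter region, against 50.2% of all protein-coding genes. A median of 9.57% of their spans was covered, against 2.56% over all protein-coding genes. Vim, the gene of the intermediate filament vimentin, was covered over 92.2% and the calcium-binding protein gene S100a4 over 100% of their spans. Among those with the most covered bp, the podoplanin gene Pdpn had 16349 bp (49.3%), the N-cadherin gene Cdh2 18249 bp (8.24%), Sparc 12713 bp (47.2%), Fbn1 22536 bp (10.9%), Col3a1 12154 bp (31.0%) and Col5a1 10603 bp (6.88%). The mesenchymal programme was not complete. Lum, Thy1, Postn, Cdh11 and Mfap5 had 0 covered bp. Col1a1 had no promoter region, and its 1 region of 1326 bp began at 94936452 on chromosome 11, downstream of a TSS at 94936224 and past the promoter window. Of 10 smooth muscle markers 3 had a promoter region (Cald1, Tpm2 and Mylk), and Acta2, Tagln, Cnn1, Myh11, Myl9 and Des had none. Vim and S100a4 were named after their values were seen.

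Epithelial, endothelial and leukocyte markers were mostly without promoter regions. Few had CpG-rich promoters, with 5 of 18 general epithelial, 4 of 14 alveolar, 2 of 12 endothelial and none of the airway and leukocyte markers. Their counts thus stand beside 50.2% of all protein-coding genes and 22.4% of those without a CpG-rich promoter. Among CpG-rich members, 0 of 5 general epithelial, 2 of 4 alveolar and 1 of 2 endothelial markers had a promoter region, beside 80.3% of all CpG-rich genes. The part of promoter class in the low counts was not tested. Of 18 general epithelial markers 3 had one: Muc1, Krt8 and Prss8, with 1096, 487 and 46 covered bp in their spans. Epcam, Krt7, Krt18, Krt19 and Cldn3 had 0 covered bp. Cdh1, the gene of E-cadherin, had 4437 covered bp (6.53%) in 5 regions, none of which touched an exon or the promoter. The nearest to the TSS had its centre 8994 bp from it, spanned 1285 bp (chromosome 8, 106611702 to 106612986) and was called over its full length in both other lists. Of 14 alveolar markers 2 had a promoter region (Aqp5 and Lpcat1), and the surfactant genes Sftpa1, Sftpb, Sftpc and Sftpd had 0 covered bp. Of 14 airway markers 1 had a promoter region (Cfap52), with 0 covered bp at Scgb3a1, Scgb3a2, Cyp2f2, Muc5ac and Muc5b. Of 18 leukocyte markers 1 had one, Cd68, and Ptprc, the gene of CD45, and Cd3e had no region. Of 12 endothelial markers 1 had one (Flt1), while 7 others had covered bp away from the promoter, among them Tek (2815 bp) and Cdh5 (1812 bp). Of 6 mesothelial markers Msln alone, and of 11 neuronal markers Ncam1 alone, had a promoter region. The labels describe lung cells, and most alveolar and airway markers had no promoter region in the DMSO list. Of the 12 alveolar markers without one, 3 had covered bp elsewhere in the span. The highest of these was Cldn18, the gene of a claudin of tight junctions, with a region of 5169 bp within the gene, of which curcuphenol regions covered 54.5% and IFN-γ regions 100%.

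**Figure D3:**
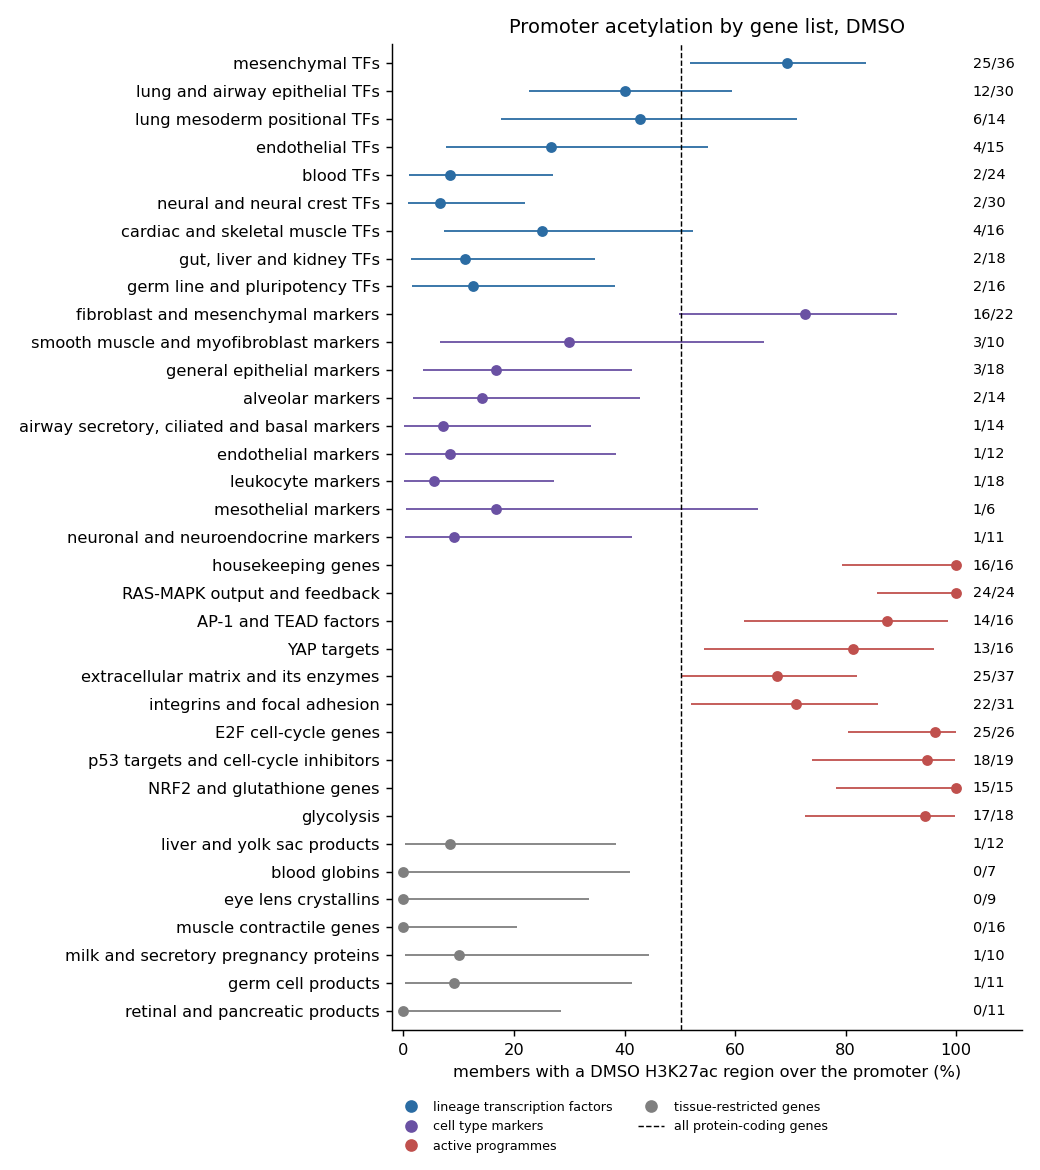
Share of the members of each list with a DMSO region over the promoter (x axis, %), with exact Clopper-Pearson 95% intervals that cover counting error only, and the counts at the right. The dashed line is the share over all protein-coding genes (50.2%), with mesenchymal factors and markers and the programmes at its right and most other lineages and tissues at its left.

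All 24 genes of RAS-MAPK output and feedback had a promoter region, as had 16 of 16 housekeeping genes, against 50.2% of all protein-coding genes. The lists were made with earlier results of these data known, so these counts are no independent support. Of the 24, 19 had CpG-rich promoters, a class in which 80.3% of all genes had a region. The housekeeping list held 11 CpG-rich genes. The RAS-MAPK promoters also had wide regions, with a median of 7492.5 bp, against 4262.5 bp for the housekeeping genes and 1901 bp over all genes with a promoter region. Their spans were covered over a median of 68.4%, against 48.2% for the housekeeping genes. Hmga2, which encodes an architectural chromatin protein of embryonic and tumour cells, had 77059 bp (66.3% of its span) in 28 regions, the widest of 18935 bp over the promoter. Emp1 had 16122 bp (75.9%), Spred1, an inhibitor of RAS signals, 20957 bp (33.7%), Spred2 15179 bp (15.3%), the ETS factor gene Etv1 14266 bp (16.0%) and the EGF receptor ligand gene Ereg 13104 bp (65.4%). Dusp6, a phosphatase of ERK, and the immediate early genes Egr1, Ier3 and Phlda1 were covered over 100% of their spans, and these last were named after their values were seen.

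Of 16 AP-1 and TEAD factors 14 had a promoter region, against 50.2% of all protein-coding genes, and Batf and Batf3 had none. Among CpG-rich members 12 of 13 had one, beside 80.3% of all CpG-rich genes. Fosl1, the gene of FRA1, was covered over 8102 bp (87.7%) under a region of 10411 bp, and Fosl2 over 12553 bp (56.1%) under one of 11337 bp. Tead1 was covered over 60665 bp (26.6%), Wwtr1, the gene of TAZ, over 45880 bp (37.8%), Tead4 over 14156 bp (18.96%) and Yap1 over 10530 bp (14.3%). Of 16 YAP targets 13 had a promoter region, led by Myof (50227 bp, 34.5%), Dock5 (19199 bp) and the receptor kinase gene Axl (14823 bp, 44.6%). Among CpG-rich YAP targets 10 of 12 (83.3%) had one, near the 80.3% of all CpG-rich genes. Ccn2 had 0 covered bp, while its relative Ccn1, named after its value was seen, was covered over 92.9%.

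Matrix and adhesion genes divided by member, and their counts stand beside 50.2% of all protein-coding genes with a promoter region. Among CpG-rich members, 11 of 14 matrix genes (78.6%) and 15 of 19 adhesion genes (78.9%) had one, not above the 80.3% of all CpG-rich genes. Of 37 genes of extracellular matrix and its enzymes 25 had a promoter region, among them the perlecan gene Hspg2 (26124 bp, 25.4%), the inhibitor gene Timp2 (25053 bp, 45.3%), Lamc1 (23384 bp, 20.4%), Lamb1 (18567 bp, 28.4%) and the gelatinase gene Mmp2 (17858 bp, 65.8%). Loxl2 had 21190 bp (24.3%) and no promoter region. Tnc, Tnn, Lama1, Lama2, Lama4 and Lama5 had no promoter region, and Lama1 and Lama5 no covered bp. Of 31 integrin and focal adhesion genes 22 had one. The hyaluronan receptor gene Cd44 had 34361 bp (37.5%) and the actinin genes Actn1 and Actn4 34313 bp (36.6%) and 33659 bp (48.0%), whereas Itga2, Itga4, Itga7, Itga9 and Itga11 had none.

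Cell-cycle genes, and also genes that hold the cell cycle back, mostly had promoter regions. The counts in this paragraph stand beside 50.2% of all protein-coding genes and 16 of 16 housekeeping genes. The lists were made with earlier results of these data known, so the counts are no independent support. Of 26 E2F cell-cycle genes 25 had one, with a median width of 2489 bp, led by E2f2 (6599 bp, 26.6%) and Mki67 (5383 bp, 19.5%). Ccna2 had 3239 covered bp and no promoter region. Of 19 p53 targets and cell-cycle inhibitors 18 had one, all but Cdkn1c. The widest covered the INK4 genes, whose products inhibit the kinases upstream of RB. Cdkn2b and Cdkn2c were covered over 100% of their spans, under regions of 12956 and 12759 bp, and Cdkn2a over 81.2%. Curcuphenol regions covered 49.6% and IFN-γ regions 84.4% of the Cdkn2b region. Cdkn2b lies within the non-coding gene Gm12610 (chromosome 4, 89295180 to 89518621), which itself had 93120 covered bp (41.5%). All 15 NRF2 and glutathione genes had a promoter region, led by Nfe2l2, which encodes NRF2 (25860 bp, 85.8%), and Gsr (21386 bp, 46.6%). Of 18 glycolysis genes 17 had one, led by the glucose transporter gene Slc2a1 (11465 bp, 38.8%) and Hk2 (10903 bp, 21.6%), and Aldoc had none. The glycolysis count was 11 when at least 500 bp of the promoter window had to be covered. Among CpG-rich members alone, 22 of 22 E2F cell-cycle genes, 16 of 17 p53 targets and inhibitors, 7 of 7 NRF2 and glutathione genes and 10 of 10 glycolysis genes had a promoter region, beside 80.3% of all CpG-rich genes.

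The 25 genes with the most covered bp were of several kinds, coding and non-coding. Covered bp grow with gene length, so each is given with the percent of its span. Septin9, the gene of a filament-forming GTPase, came first with 94283 bp (57.6%) in 24 regions, the widest of 24097 bp. It was followed by Gm12610, by Mast4 (85540 bp, 14.2%), by Asap1 (79850 bp, 26.9%) and by Tcf4. Hmga2, Frmd4a (76508 bp, 12.8%), Rgl1, an effector of RAS-related GTPases (75864 bp, 30.3%), and Tgfbr3, the TGF-β co-receptor betaglycan (72457 bp, 39.4%), were also among the 10 highest. Among the others of the 25 highest were the non-coding genes Pvt1, the neighbour of Myc (67129 bp, 30.1%), and Mir100hg (64096 bp, 26.7%). Vmp1 (65885 bp, 65.2%) and the non-muscle myosin gene Myh9 (53334 bp, 64.6%) had the largest percents among them after Hmga2. Aopep, Lpp, Peak1, Zmiz1, Rbms1, Tead1, Sh3kbp1, Runx1, Fndc3b, Sik3 and Rad51b lay between 10.3% and 29.7% of their spans. Each of the 25 had a promoter region with DMSO, beside 50.2% of all protein-coding genes. The 25 were chosen on covered bp over a span that takes in promoter windows, so this count is largely set by the choice.

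**Figure D4:**
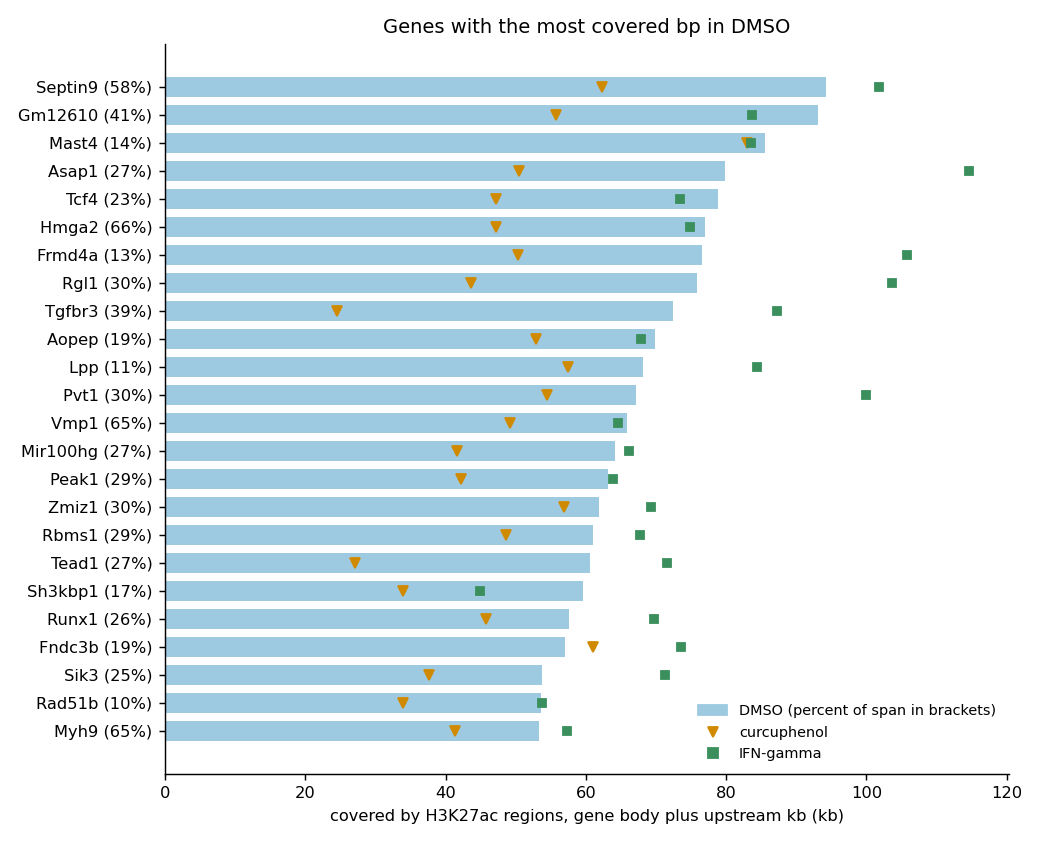
Base pairs covered by H3K27ac regions over gene body and upstream sequence (x axis, kb) for genes among the 25 with the most covered bp in DMSO (bars, 1 gene not drawn, percent of span in brackets), with curcuphenol (triangles) and IFN-γ (squares), 1 library each. Septin9 has 94.3 kb with DMSO, and because the genes were chosen on the DMSO values, lower values in the other lists are partly set by the choice.

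Ranked by percent in place of bp, among genes of at least 10 kb, other genes came first. Nr2f2 and Vasn, the latter encoding a membrane protein that binds TGF-β, were covered over 100%. They were followed by Hoxb3os (97.8%), the splicing factor gene Sf3b3 (95.98%), Oaf (95.97%), Kansl2 (92.7%), Hoxb3 (92.3%), Smad7, an inhibitor of TGF-β receptors (90.2%), Nfe2l2 (85.8%) and Ppp1r18 (85.6%). The widest single regions lay on chromosome 6 over Lncpint (31068539 to 31110061, 41523 bp), on chromosome 11 over the 3′ part of Vmp1 and Mir21a (86568156 to 86609489, 41334 bp), on chromosome X (126745781 to 126782257, 36477 bp) and on chromosome 8 over Il34 and Sf3b3 (110804966 to 110837217, 32252 bp). That on chromosome X touched no curated gene.

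Genes of other tissues and of the senses were mostly without regions. Of all protein-coding genes 8688, or 41.4%, had 0 covered bp over gene body and upstream sequence. A promoter region was present in 50.2% of all protein-coding genes and in 22.4% of those without a CpG-rich promoter. Of 1107 olfactory receptors 1099 had none, and 6 had a promoter region: Olfr433, Olfr432, Olfr1033, Olfr52, Olfr654 and Olfr225. None of 228 type 1 and 122 type 2 vomeronasal receptors, of 35 bitter taste receptors, of 70 defensins and of 22 major urinary proteins had a promoter region. Of 49 keratins 2 had one (Krt8 and Krt80), of 56 keratin-associated proteins 1 and of 25 genes of the prolactin family 3. No globin (7 genes), lens crystallin (9), muscle contractile gene (16) or retinal or pancreatic product (11) had a promoter region. Tnnt2, which encodes a troponin of heart muscle, was the contractile gene with the most covered bp, 7412 (43.8%), in regions that did not touch its promoter. Of 12 liver and yolk sac products 1 had a promoter region, Apoa2, and the albumin gene Alb had 0 covered bp. Of 85 ribosomal protein genes 81 had one.

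The longest protein-coding genes with no covered bp included genes of synapses, axon guidance and cell adhesion. They were Ptprd (2.27 Mb with its upstream sequence), Fhit (1.61 Mb), Gpc5 (1.43 Mb), Agbl4, Opcml, Dab1, the netrin receptor gene Dcc, Dpp6, the neuroligin gene Nlgn1 and Nell1 (0.889 Mb). Fhit spans a fragile site and encodes a tumour suppressor. Ptprd and Dpp6 had no region in any list. The other lists had regions of at most 3594 bp in the remaining genes, that being Dab1 with curcuphenol.

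Stretches of more than 1 Mb without a region numbered 321 and took in 599 Mb of sequenced bases. The longest lay on chromosome Y (45.4 and 37.2 Mb sequenced), which has multicopy genes such as Sly and Ssty2. The longest on chromosome X (7.56 Mb sequenced) held 23 protein-coding genes, among them Slx and other multicopy genes, and the next on X (4.86 Mb) held 6, with Slitrk2 and Slitrk4. The sources used here do not say how reads of several equal matches were treated, and the effect of this on multicopy stretches was not tested. The longest stretch on an autosome spanned 7.52 Mb of chromosome 8 (95888701 to 103412875) and held the cadherin genes Cdh8 and Cdh11 and no other protein-coding gene. The curcuphenol list had 4 regions in it and the IFN-γ list 2.

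Autosomes carried between 15.1 (chromosome 14) and 25.5 (chromosome 11) DMSO regions per Mb, with a median of 19.1, and chromosome X 8.72. Of 902 protein-coding genes on X 35.5% had a promoter region, against 40.2% to 59.7% on the autosomes. Within CpG-rich genes the shares were closer, with 74.6% (68.6 to 80.0) of 240 genes on X and 80.4% (79.6 to 81.2) of 9843 on the autosomes. Xist, the non-coding gene that silences an X chromosome in female cells, had a promoter region of 3543 bp (chromosome X, 103480576 to 103484118), which covered 14.8% of its span. Chromosome Y had 12 regions and no protein-coding gene with a promoter region. Of these 12 regions 9 lay between 90761022 and 90836604, close to its end, where Y and X share sequence. The line came from a female mouse, and the origin of these reads was not tested.

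**Figure D5:**
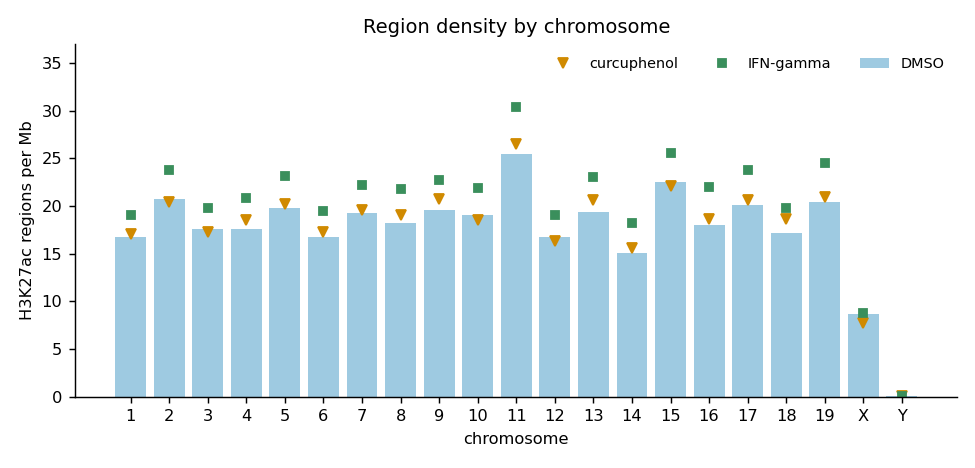
H3K27ac regions per Mb (y axis) on each chromosome (x axis) with DMSO (bars), curcuphenol (triangles) and IFN-γ (squares), 1 library each. Chromosome X has 8.72 DMSO regions per Mb, below the 15.1 to 25.5 of the autosomes, and chromosome Y has nearly none.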

How the data were processed

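H3K27ac ChIPseq was done on A9 cells under 3 treatments, and the authors set each H3K27ac library against its own input. Paired-end reads were aligned by them to mm10 with BWA mem, regions were called with MACS2 at an FDR cutoff, and the versions in the submitters' processing notes are BWA 0.7.17 and MACS2 2.1.2. The deposited lists hold start and end positions in bp and names of regions. Filters on duplicates and mapping quality are not given in the sources used here, and the read depth of the libraries is unknown. Narrow regions were called, so that a broad domain can be split, and the width of a region depends on depth as well as on acetylation. Inputs served only as controls for these calls.

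Positions of 26182 genes (21000 protein-coding, 5182 non-coding) came from curated RefSeq transcripts on GRCm38.p6 (mm10), and 0 regions ran past the end of a chromosome of that build. A gene had a promoter region when at least 1 bp of a region lay in the window from 1000 bp before any TSS to 100 bp after it. Covered bp were summed over the gene body and 1000 bp upstream. Genes that overlap or lie side by side can share a region. Motifs and GC content were read from the genome in 500 bp around region centres and in windows 10 kb downstream that no region touched. Promoter sequences of the RefSeq table were matched by symbol to 8622 protein-coding genes with a promoter region and 8231 without.

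The members and the gene lists were chosen with earlier results of these data known. The genes named are the 25 with the most covered bp, the 10 of at least 10 kb with the largest covered percent, of each list up to 6 members with the most covered bp and up to 6 without a promoter region in list order, the 10 longest protein-coding genes without covered bp, genes in the 5 longest stretches without a region and the 5 widest regions. A few of these genes are not reported here. Any other gene was picked with its value in view. No test was run, since each treatment had 1 library. The alternatives tried were other promoter windows and overlaps, wider regions only, other spans, other motif windows and the lists of the other treatments. Overlaps and covered bp were tested on simulated data of 1500 regions and 3000 genes, with 0 mismatches to a direct count per base. Python 3.11.15, numpy 2.4.6, scipy 1.17.1 and matplotlib 3.10.9 were used.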

Additional observations from a re-analysis of the deposited data

How the results depend on the processing

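No paired analysis was possible because there was 1 H3K27ac library per treatment, and no replicate could be left out. The number of protein-coding genes with a promoter region (10541), of lineage factors (58), of mesenchymal factors (25), of neural factors (2), of genes of the programme, marker and tissue lists (216 of 413) and of genes without covered bp (8688) stayed within 1.5 times of these values under every alternative run for each. Of lung and airway epithelial factors, 7 in place of 12 had a promoter region when at least 500 bp of the window had to be covered. For the blood factors the count was 1 in place of 2 under that rule, with regions of at least 500 bp only, with the curcuphenol list and with the IFN-γ list. Of the 25 genes with the most covered bp, 14 were among the highest 25 with the curcuphenol list and 0 when ranked by percent of the span, since short genes then come first. The ratio of AP-1 shares was 2.18, 2.38 with windows of 200 bp and 2.56 in regions away from promoters. Of 186 recomputed counts of the other 31 lists, 157 stayed within 1.5 times and 29 did not, 8 of these under the rule of 500 bp covered, among them glycolysis with 11 in place of 17 genes. Depth is unknown and regions carry no score, so regions under 500 bp could be left out but no stricter threshold applied.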

Other observations

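Myc, Met and Egfr are examples of receptor and growth genes often amplified or overexpressed in lung tumours. Myc was covered over 5251 bp (87.2% of its span) and Met over 18789 bp (16.9%), with promoter regions of 5973 and 1870 bp. Egfr had 449 bp (0.276%) and no promoter region. These 3 genes were chosen after their values were seen and do not stand for such genes as a class. The region of 36477 bp on chromosome X that touches no curated gene had a GC content of 26.6%, and 53.9% of its bases lay in repeats. The region over Sox2 had 48.5% GC and 11.4% of bases in repeats. Curcuphenol regions covered 83.8% and IFN-γ regions 91.2% of the chromosome X region. Its part in any process of these cells was not tested.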
